A study of Homo sapiens with 9 samples.

Results

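The genes described here encode the proteins of the mitochondrial ribosome. They were taken as every protein-coding gene in the deposited count files whose symbol starts with MRPL or MRPS and goes on with a number and at most 1 of the letters A, B or C. The rule uses names only and finds 78 of the 58735 genes listed: 49 named MRPL, for the large subunit, and 29 named MRPS, for the small subunit. The human symbols do not follow the subunit in every case, since MRPS18A and MRPS30 sit in the large subunit, and MRPS36 is now known as a component of the 2-oxoglutarate dehydrogenase complex and not as a stable ribosomal subunit.

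RNA was sequenced after poly(A) selection from HEK293T cells, a human embryonic kidney line carrying the SV40 large T antigen. All 9 libraries come from cells that express PRPS1, which makes phosphoribosyl pyrophosphate for nucleotide synthesis, with an HA epitope and a dTAG degron, together with PRPSAP1, a protein that associates with it, whose tags are V5 and BromoTag. Control cells thus carry both degrons too. Of the 9 libraries, 3 are from cells given DMSO, 3 from cells given 500 nM dTAG47 to deplete PRPS1, and 3 from cells given 500 nM AGB1 to deplete PRPSAP1, each compound for 24 h. dTAG47 brings the ubiquitin ligase receptor CRBN to the dTAG, and AGB1 brings VHL to the BromoTag. Whether the tagged line is 1 clone, and whether the libraries of a group are separate cultures, is not given in the sources used here, so p-values reflect variation among these libraries alone, and that variation may be technical. Cells without the tags were not analysed here, and mRNA counts do not show how far either protein was depleted.

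Mitochondrial ribosomes translate the few messenger RNAs made from mitochondrial DNA, all of which encode subunits of the respiratory chain and the ATP synthase. Their ribosomal RNAs come from mitochondrial DNA, while every one of their proteins is encoded in the nucleus, made in the cytosol and imported. About the site of peptide bond formation and decoding the proteins descend from bacterial ones, and many others were added in the mitochondrial lineage. Defects of single subunits cause human disease with combined loss of respiratory chain activity.

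Total counts ranged from 27964128 to 44803380 per library, at which 3 counts correspond to 0.0670 to 0.107 CPM (counts scaled to library size). All 78 genes passed the filter on low counts, among 18319 genes tested. The label calls the cells epithelial: the keratins KRT8 and KRT18 were at 25.8 to 35.4 and 41.7 to 59.5 CPM, but EPCAM and CDH1 reached only 3.23 and 9.06 CPM, whereas the mesenchymal genes VIM and CDH2 were at 337 to 382 and 65.1 to 80.0 CPM. Of 8 markers of blood, endothelial, fibroblast and liver cells, 7 stayed at or below 0.536 CPM and COL1A1 was at 22.5 to 32.3 CPM. Among the 78 genes, DMSO 1 and dTAG47 1 were the libraries in which levels followed base composition most closely by rank, as given below.

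The promoters of these genes are drawn from RefSeq on GRCh38.p14, as the 250 bases before and the 50 bases after each start, and 69 of the 78 genes matched. A gene was counted for a motif when any of its listed starts held it. The short sequences shown here are those that recur across the set. The letters AAGATGGCG, a strong form of the YY1 motif, were found on either strand in 13 of the 69 genes (18.8%). Of 11011 tested protein-coding genes that matched the same table, 4.37% held them. By single promoter the shares were 15.3% of the 85 in the set and 1.75% of all 35116 in the table. The 13 genes held 14 matches, 12 of them on the strand of the gene, and 11 lie within exons by GENCODE 29. In 9 of the genes the ATG inside the match is an annotated start codon there, so that the letters from it onwards are also coding sequence. The first letter of a match lay between position -223 and position 36 from the RefSeq start (median 9.5). The other genes with a match were MRPL42 and MRPL52 on their own strand, MRPL52 at 2 places, and MRPL32 and MRPL36 on the opposite strand. The 9 start-codon matches are given with the motif in capitals.

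MRPS30, chr5:44808951-44808977, plus strand: tcgcgggcaAAGATGGCGgcggccagg
MRPL22, chr5:154941099-154941122, plus strand: ggagggcgaAAGATGGCGgcggca
MRPS18B, chr6:30617854-30617880, plus strand: gcgtacgtcAAGATGGCGgcgtctgta
MRPS10, chr6:42217835-42217861, minus strand: gggaccggcAAGATGGCGgcgcggaca
MRPS18A, chr6:43687765-43687791, minus strand: aggtttttgAAGATGGCGgccctcaag
MRPS24, chr7:43869481-43869507, minus strand: gcttggcccAAGATGGCGgcctccgtg
MRPL50, chr9:101398578-101398604, minus strand: atctcatcgAAGATGGCGgcgcgatct
MRPL46, chr15:88467363-88467389, minus strand: ggagaacgaAAGATGGCGgcgcccgta
MRPL38, chr17:75904861-75904887, minus strand: gccggagggAAGATGGCGgcgccctgg

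The core of the ETS family motif, CCGGAAG, bound by GABPA among others, was found on either strand in 30 of the 69 genes (43.5%), against 20.8% of the 11011 tested genes. By single promoter the shares were 38.8% in the set and 10.3% over all promoters. The 40 ETS matches began between positions -222 and 8 (median -24), and the motif recurred within 1 promoter in several genes, as in MRPL27, MRPS34 and MRPS22. The 2 sites of MRPL27, a protein near the peptidyl transferase centre, show the motif in capitals.

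MRPL27, chr17:50373221-50373245, minus strand: acgcagggcCCGGAAGtagatctcc
MRPL27, chr17:50373177-50373201, minus strand: ttttcgagaCCGGAAGtgagtgatc

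Other motifs had shares close to or below those of the tested genes. The NRF1 motif CGCANGCGC was in 12 of 69 genes (17.4%, against 16.1%), the GC box GGGCGG in 42 (60.9%, against 77.4%), the CCAAT box in 23 (33.3%, against 42.9%) and the TATA box TATAAA in 3 (4.35%, against 8.56%). By single promoter the shares were 15.3%, 60%, 32.9% and 3.53% in the set, against 7.47%, 45%, 34.6% and 11.5% over all promoters. Neither the YY1 nor the ETS letters contain another of these motifs. A match is a description of letters and not evidence that a factor binds there.

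The element ACTACANNT, which opens the site read by ZNF143, was searched for after the sequences had been looked at. It was in 7 of the 69 genes (10.1%), against 5.90% of the tested genes. By single promoter the shares were 10.6% in the set and 3.58% over all promoters. Of the genes with this element, MRPL24 lay above DMSO under both compounds and MRPL42 below DMSO under both, and neither passed the test (below). The others, MRPL19, MRPL34, MRPL50, MRPS22 and MRPS26, overlapped DMSO under both. Their log2 fold changes ran from -0.04 (MRPL50) to 0.06 (MRPS22) with dTAG47 and from -0.09 (MRPL50) to 0.07 (MRPS26) with AGB1. A link between the element and a response was not tested. MRPL24 holds the element at 2 places upstream of its RefSeq start, at positions -116 and -55. The match at -116 lies within an exon of the gene by GENCODE 29.

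MRPL24, chr1:156741187-156741213, minus strand: tagcggcggACTACAACTcccagcatg
MRPL24, chr1:156741126-156741152, minus strand: tacacttggACTACAACTcccagaaag

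Many of the genes start next to another gene. A gene on the other strand began at most 1000 bases upstream in 17 of the 78 (21.8%), against 1313 of the 14043 tested protein-coding genes (9.35%). MRPL46 and MRPS11, of the large and the small subunit, begin 34 bases apart and point away from each other. MRPL36 begins 34 bases from NDUFS6 and MRPL47 36 bases from NDUFB5, both of which encode subunits of respiratory complex I, and MRPL18 begins 63 bases from TCP1, a subunit of the cytosolic chaperonin. The genes are spread over 21 chromosomes, with at most 8 on any of them.

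In DMSO the genes were expressed well above most others. Levels between genes are given as CPM per kilobase of exonic length, and their median was 26.6 (quartiles 15.7 and 41.4), against 3.24 over all tested genes, so that the middle gene of the set lay at percentile 89.9. The medians of the MRPL and MRPS genes were 28.4 and 23.9 CPM per kilobase. Without division by length, mean levels over the 9 libraries ran from 0.568 to 407.7 CPM: 5 genes were under 10 CPM, 55 between 10 and 100, and 18 at 100 or more.

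MRPL37, a protein added in the mitochondrial lineage, had the highest level at 154 ± 7.98 CPM per kilobase in DMSO (SD, n = 3). MRPS34 and MRPS26, both added to the small subunit in mitochondria, followed at 120.2 ± 11.8 and 105 ± 12.9, then MRPL15 at 101 ± 6.75 and MRPL3, which reaches towards the peptidyl transferase centre, at 93.9 ± 4.82. Among these, neighbours in the order from MRPS34 to MRPL3 differed by about their SDs or less, and MRPL37 stood above them.

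The lowest levels were found mostly in genes that overlap others. MRPS24, a protein at the entry of the mRNA path, was at 0.312 ± 0.256 CPM per kilobase. Its 9 libraries gave 0.787, 1.50 and 0.161 CPM in DMSO, 0.199, 0.715 and 0.160 with dTAG47 and 0.217, 0.573 and 0.809 with AGB1, a range within each group as wide as that between groups. A readthrough gene on the same strand, URGCP-MRPS24, covers 23.2% of its exonic bases and had no count in any library. In all, 7 genes share at least 20% of their exonic bases with another gene on their strand (MRPS24, MRPL38, MRPS28, MRPL53, MRPS17, MRPL33 and MRPL12), and 5 of these are among the 8 lowest of the set. How reads on shared bases were counted is not given in the sources used here, so these levels are uncertain. The other low genes were MRPL38 at 1.53 ± 0.351, MRPL46 at 1.56 ± 0.0521, MRPS18C at 2.36 ± 0.363 and MRPS28 at 3.69 ± 0.544 CPM per kilobase.

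**Figure D1:**
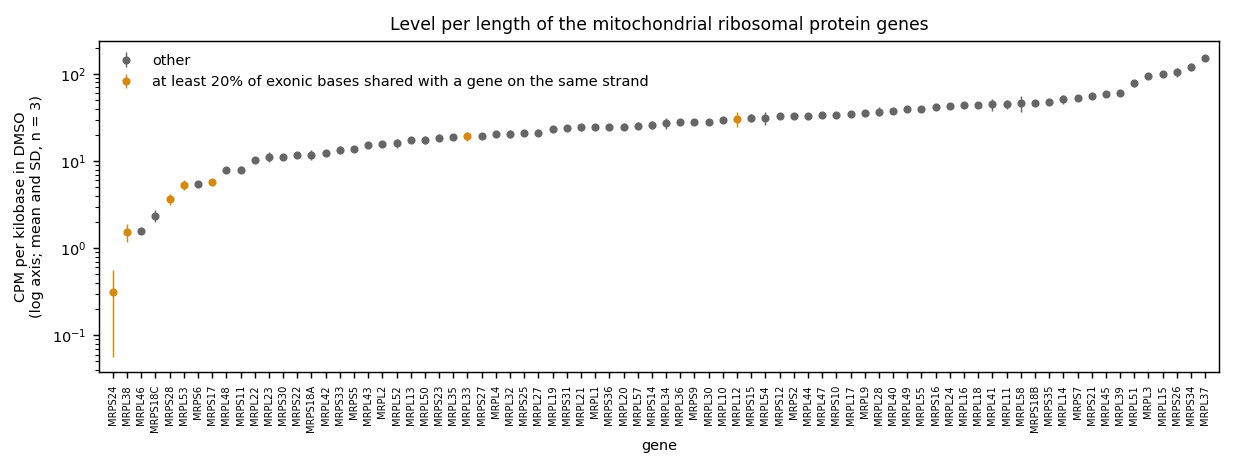
Level of each of the 78 genes in DMSO, in CPM per kilobase of exonic length on a log axis, as mean and SD of 3 libraries. Orange marks the 7 genes that share at least 20% of their exonic bases with another gene on the same strand, most of them at the low end; MRPL37 is highest at 154.

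The small-subunit protein bS18 has 3 mitochondrial descendants, of which MRPS18C and MRPS18B sit in the small subunit and MRPS18A in the large. MRPS18B was at 46.4 ± 2.10 CPM per kilobase in DMSO, MRPS18A at 11.8 ± 1.55 and MRPS18C at 2.36 ± 0.363, so these levels differed by more than the SDs of the libraries. On the other strand, RSPH9 overlaps 47.0% of the exonic bases of MRPS18A and ABRAXAS1 40.2% of those of MRPS18C. No gene there overlaps MRPS18B. The strand used in counting is not given in the sources used here, so the order is uncertain beyond these SDs. None passed the test in any comparison: with dTAG47 the log2 fold changes were 0.14 (SE 0.14) for MRPS18A, 0.01 (SE 0.07) for MRPS18B and -0.05 (SE 0.14) for MRPS18C, and with AGB1 0.17, -0.06 and -0.04.

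Taken over libraries, the set kept a nearly constant share of all counts. It took 0.562%, 0.601% and 0.616% in DMSO 1 to 3, 0.602%, 0.594% and 0.598% with dTAG47, and 0.607%, 0.606% and 0.607% with AGB1. DMSO 1 was the lowest of all, and the 3 AGB1 libraries lay closest together. The median gene of the set had a range of 0.28 in log2 CPM over the 9 libraries, against 0.51 for all tested genes, which include many at lower counts.

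DMSO 1 was the library with the lowest level for 38 of the 78 genes and was below the gene's own mean in 67, with a median deviation of -0.10 on the log2 scale. In the other 8 libraries the median deviation lay between -0.0168 and 0.0444. The deviations followed the GC content of the transcripts in this library and in dTAG47 1, in opposite directions: as a description across the 78 genes, which share these libraries, Spearman's rho was -0.54 in DMSO 1 and 0.58 in dTAG47 1, and between 0.0172 and 0.26 in the AGB1 libraries. It was -0.26 in both DMSO 2 and dTAG47 2, 0.0481 in DMSO 3 and 0.0667 in dTAG47 3. Over all tested genes it was -0.21 in DMSO 1, close to -0.19 in dTAG47 2 and -0.15 in DMSO 2, and 0.37 in dTAG47 1, the highest of the 9. The 20 genes over 55% GC were lower by a median of 0.17 in DMSO 1 (deviation -0.17) and higher in dTAG47 1 (0.13), whereas the 30 genes under 45% GC had medians of -0.0661 and -0.0715. Labels give no batch for these libraries.

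**Figure D2:**
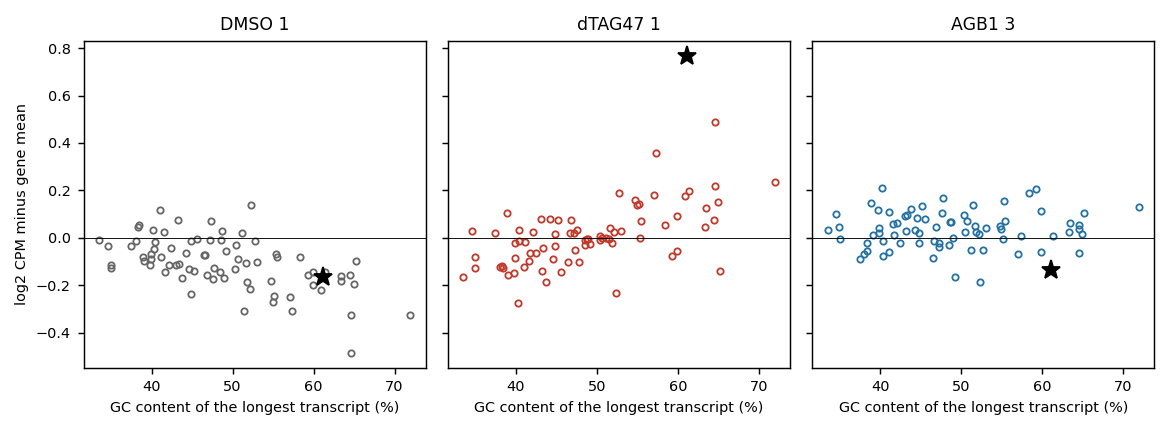
Deviation of each gene from its own mean over the 9 libraries (log2 CPM, vertical axis) against the GC content of its longest transcript in percent (horizontal axis), for DMSO 1, dTAG47 1 and AGB1 3, genes at 5 CPM or more. Points slope down in DMSO 1 and up in dTAG47 1; the star, MRPL23 at 61.2% GC, lies 0.77 above its mean in dTAG47 1, higher than any other gene shown.

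**Figure D3:**
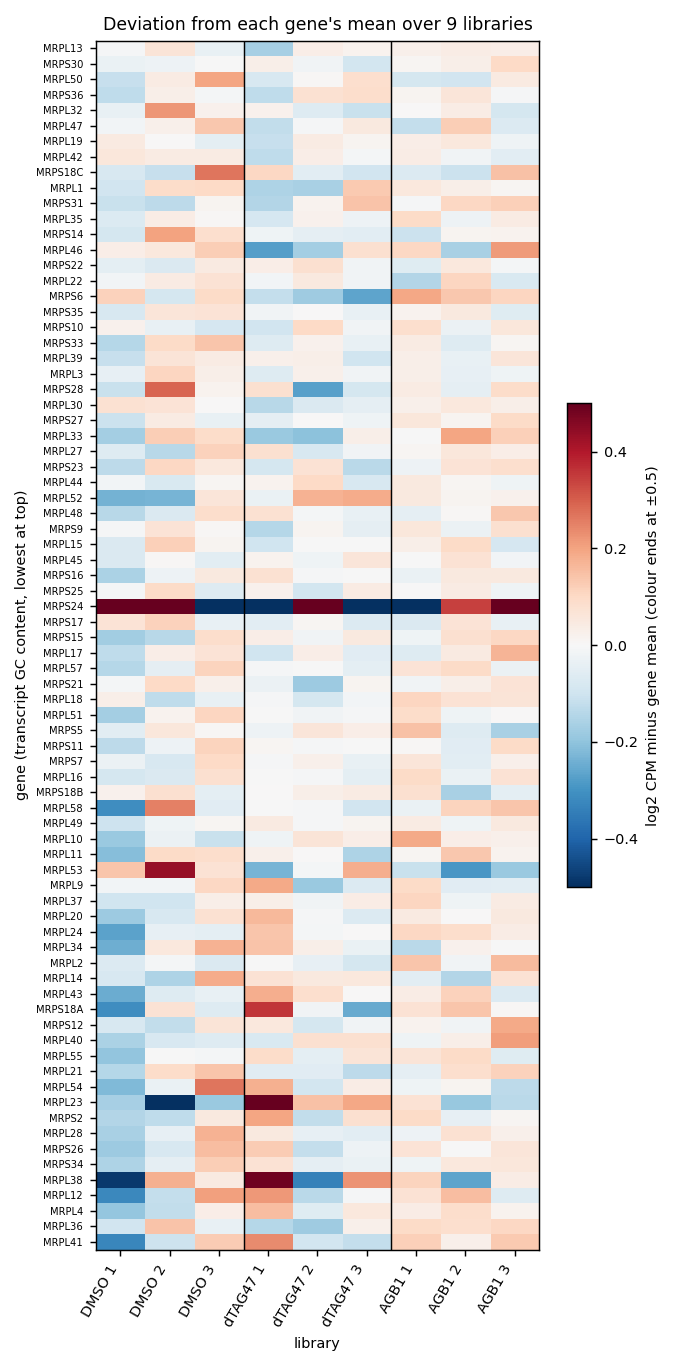
Deviation of each of the 78 genes (rows, ordered by transcript GC content with the lowest at the top) from its own mean in each of the 9 libraries (columns), in log2 CPM with colours ending at 0.5 in either direction. The lower rows of DMSO 1 are mostly blue and those of dTAG47 1 mostly red, and MRPS24, MRPL23 and MRPL38 show the widest swings.

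The first comparison asked how the genes respond to the compound directed at PRPS1. With dTAG47, 1 of the 78 genes passed the test against DMSO (edgeR quasi-likelihood test, Benjamini-Hochberg adjusted p under 0.05 over all tested genes), and it was higher. That gene had been called in an earlier analysis of these data, so this count was known in advance and is no finding about the set. Over all tested genes 0.0600% passed, 0.0328% higher and 0.0273% lower. Of the 78, 41 had a positive log2 fold change, against 49.7% of all tested genes, and the median was 0.00358, against -0.000974. The fold changes of 76 of the 78 lay within 0.25 of 0 on the log2 scale (97.4%), as did 74.7% of all tested genes. The median standard error was 0.0754 in the set and 0.130 over all tested genes, which include many at lower counts. MRPL and MRPS genes had medians of 0.0017 and 0.00547. Without DMSO 1 the median of the set was -0.0438 and 29 genes were positive, and without DMSO 1 and dTAG47 1 it was -0.0498 and 24 were positive.

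The gene that passed was MRPL23 (ENSG00000214026, GRCh38 chromosome 11, 1947278 to 1984522, plus strand, 11 exonic blocks), which encodes a protein at the rim of the tunnel through which the new peptide leaves the large subunit. Its level was 36.1, 28.5 and 35.6 CPM in DMSO, 68.9, 44.8 and 46.2 with dTAG47, and 42.5, 35.4 and 36.9 with AGB1. All 3 dTAG47 libraries lay above all 6 others, the nearest being AGB1 1, and dTAG47 1 lay far above the other two of its group. The log2 fold change with dTAG47 was 0.67 (SE 0.12, 95% interval 0.42 to 0.92, edgeR adjusted p = 0.0213), from 33.4 ± 4.24 to 53.3 ± 13.6 CPM (SD, n = 3).

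The size of this change depended on which libraries were included. The level in dTAG47 1 was 1.52 times the mean of the other dTAG47 libraries, while in the 8 other genes of the set within 3 percentage points of its GC content that ratio was 0.897 to 1.16 (median 1.07), and the next highest in the set was 1.44 in MRPL38. Without dTAG47 1 the log2 fold change was 0.44 (edgeR adjusted p = 0.220), without DMSO 2 it was 0.57 (adjusted p = 0.259), and without both DMSO 1 and dTAG47 1 it was 0.50 (adjusted p = 0.0961). Without any 1 of DMSO 1, DMSO 3, dTAG47 2 and dTAG47 3 it was 0.72 to 0.78 (edgeR adjusted p 0.00304 to 0.0136). DESeq2 gave an adjusted p of 0.147 and a fit of the dTAG47 and DMSO libraries alone 0.0590. With the GC trend of each library removed the change was 0.62 (adjusted p = 0.00355).

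The neighbourhood of MRPL23 on chromosome 11 was otherwise almost silent. Its antisense gene MRPL23-AS1, which overlaps 2.86% of its exonic bases, reached at most 0.304 CPM and H19, the imprinted RNA gene beyond it, at most 0.107 CPM. The upstream genes LSP1 and TNNT3 reached at most 0.161 and 0.122 CPM. None of the 75-base words of its longest transcript occurred in transcripts of other genes.

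**Figure D4:**
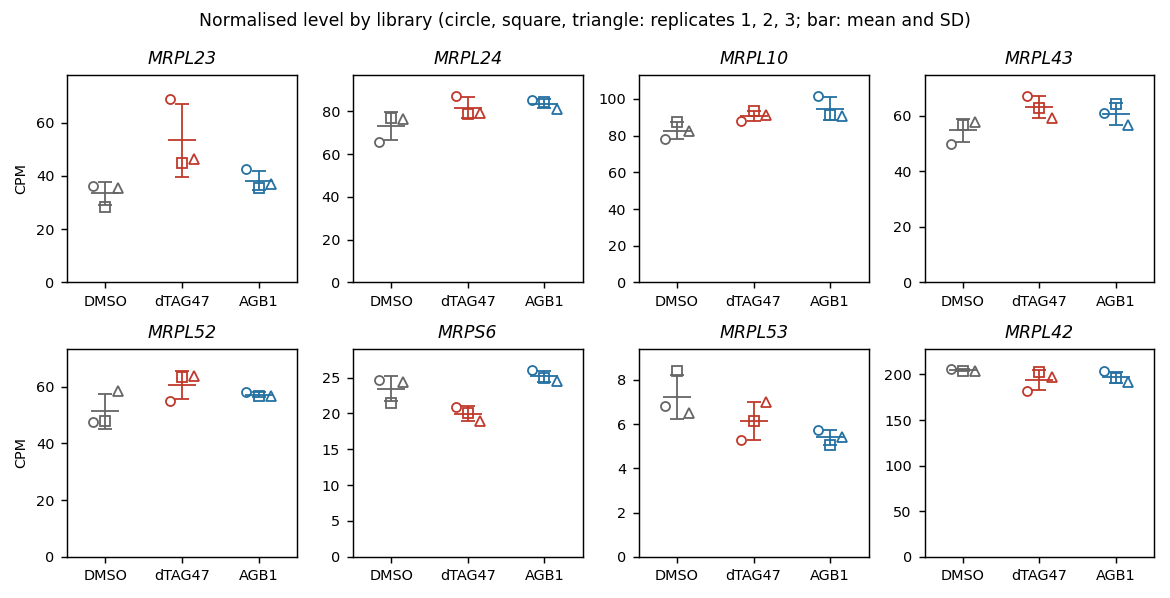
Level in CPM (vertical axes, each from 0) of 8 of the genes in the 3 libraries of each group; circles, squares and triangles are replicates 1, 2 and 3, and bars are the mean and SD. For MRPL23 the dTAG47 libraries, at 44.8 to 68.9, lie above all others; for MRPL42 all libraries are between 182 and 206.

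By place in the ribosome, the 6 genes of the exit tunnel had 4 positive and 2 negative fold changes with dTAG47, with MRPL23 the one that passed. MRPL24, which neighbours it at the tunnel mouth, was at 65.8, 77.0 and 76.7 CPM in DMSO and 87.4, 78.8 and 79.4 with dTAG47. Its libraries did not overlap, with a log2 fold change of 0.16 (edgeR adjusted p = 0.645, SE 0.07). The lowest value was DMSO 1 and the highest dTAG47 1, at a transcript GC content of 54.9%. The fold change was 0.09 without DMSO 1 and 0.04 without both of these libraries. MRPL4 had 0.14 (SE 0.07), MRPL45, which ties the ribosome to the inner membrane, 0.06, MRPL22 -0.03 and MRPL47 -0.08.

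In the stalk, the flexible arm of the large subunit that engages translation factors, none of 3 genes passed. MRPL10, its base, was at 78.3, 87.4 and 82.5 CPM in DMSO and 87.7, 93.3 and 91.3 with dTAG47. These groups did not overlap, though by a narrow gap, and the log2 fold change was 0.13 (SE 0.07, edgeR adjusted p = 0.694). MRPL12 had 0.09 (SE 0.11) and MRPL11 -0.04 (SE 0.07). The 4 genes around the peptidyl transferase centre ranged from -0.05 in MRPL3 to 0.02 in MRPL27, with MRPL2 and MRPL16 between them. MRPL58, a peptidyl-tRNA hydrolase built into the large subunit that frees stalled ribosomes, had -0.01 (95% interval -0.21 to 0.19).

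Among the 6 genes of the decoding region and the mRNA path, MRPS12, whose bacterial counterpart is the target of streptomycin resistance mutations, was at 70.4 ± 4.90 CPM in DMSO and 71.8 ± 3.54 with dTAG47 (log2 fold change 0.03, SE 0.08). The others ranged from -1.13 (SE 0.73, 95% interval -2.63 to 0.37) in MRPS24, at the counts given above, to 0.02 in MRPS5. None passed.

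Of the 21 large-subunit genes for proteins added in mitochondria, 14 had a positive fold change with dTAG47 (median 0.0413) and 0 passed. MRPL52 was at 47.6, 47.7 and 58.4 CPM in DMSO and 54.8, 63.2 and 63.7 with dTAG47 (log2 fold change 0.24, SE 0.08, edgeR adjusted p = 0.480), with DMSO 3 inside the dTAG47 range. MRPL43 was at 49.8, 56.6 and 57.7 CPM in DMSO and 67.1, 62.8 and 59.3 with dTAG47 (0.20, SE 0.08, adjusted p = 0.565). Its groups did not overlap, with the extremes again in DMSO 1 and dTAG47 1, and without both the fold change was 0.10. The strand used in counting is not given in the sources used here, and the exons of MRPL43 overlap SEMA4G and TWNK on the other strand. MRPL38, at 4.18 to 6.64 CPM in DMSO and 4.62 to 8.24 with dTAG47, had 0.22 (SE 0.21).

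On the lower side, MRPS6, a protein of the small-subunit platform, was at 24.7, 21.4 and 24.3 CPM in DMSO and 20.9, 20.1 and 19.0 with dTAG47. All dTAG47 libraries were below all DMSO libraries, by a log2 fold change of -0.23 (edgeR adjusted p = 0.631, SE 0.10). MRPL53 had -0.24 (SE 0.17), MRPL46 -0.19 (SE 0.15), MRPS28 -0.17 (SE 0.17) and MRPL33 -0.14 (SE 0.10). MRPL53 and MRPL46 are, like the genes just named on the higher side, proteins added to the large subunit in mitochondria. MRPL33, at a mean of 29.4 CPM, shares 21.1% of its exonic bases with BABAM2 on the same strand, at 30.7 CPM. The counts of both added had -0.01 (SE 0.07), a value that does not separate MRPL33 from BABAM2. MRPL46 and its head-to-head partner MRPS11 thus had -0.19 and 0.01 (SE 0.08) from starts 34 bases apart.

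At an unadjusted p under 0.05, 4 genes were higher with dTAG47 (MRPL23, MRPL24, MRPL43 and MRPL52) and 1 lower (MRPS6), against 3.65% and 3.62% of all tested genes (7.28% in either direction). Groups that did not overlap were found for 4 higher genes (MRPL23, MRPL24, MRPL43 and MRPL10; 5.13%) and 3 lower (MRPS6, MRPL30 and MRPL42; 3.85%), against 5.80% and 5.82% of all tested genes. These shares are near those of all genes.

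**Figure D5:**
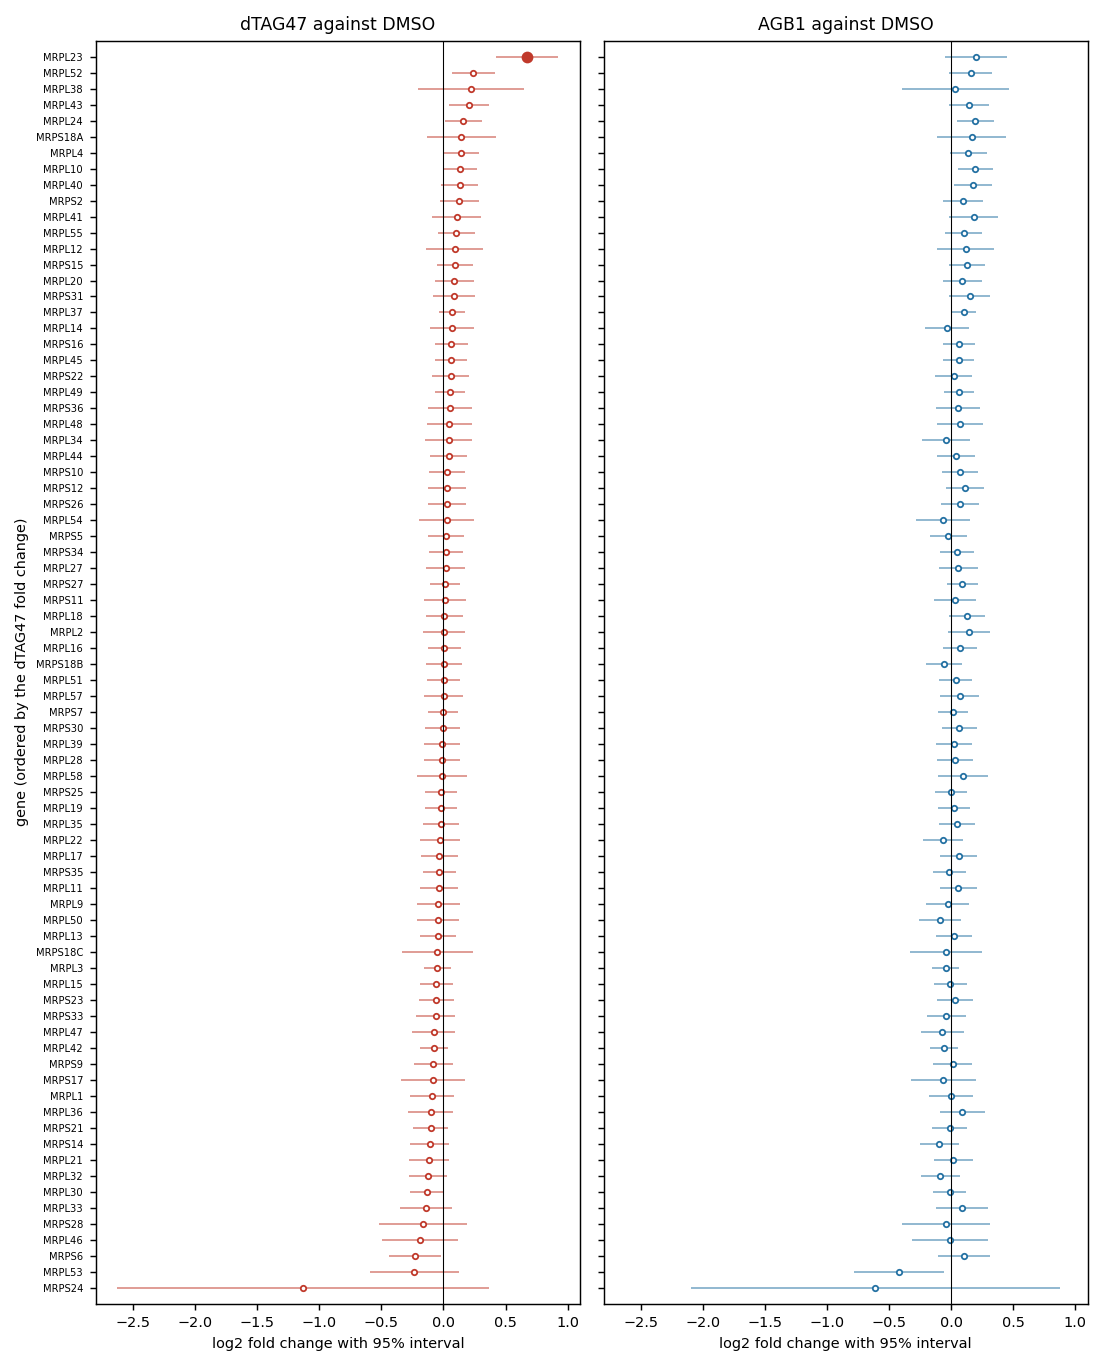
Log2 fold change of each of the 78 genes against DMSO with its 95% interval, for dTAG47 (left) and AGB1 (right), ordered by the dTAG47 value; a filled point passed the test. Only MRPL23 with dTAG47 is filled, and the widest interval, in MRPS24, belongs to the gene with the fewest counts.

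The second comparison asked the same of the compound directed at PRPSAP1. With AGB1, 0 of the 78 genes passed against DMSO in edgeR, DESeq2 and limma-voom, where 0.104% of all tested genes passed in edgeR, 0.0546% higher and 0.0491% lower. At an unadjusted p under 0.05 in edgeR, 3 were higher (MRPL10, MRPL24 and MRPL40) and 1 lower (MRPL53), against 3.55% and 4.21% of all tested genes (7.76% in either direction). Of the 78, 52 had a positive fold change, against 49.7% of all tested genes, with a median of 0.0436 against -0.000924. MRPL and MRPS genes had medians of 0.0573 and 0.0275. The size of this lean changed with the DMSO libraries included. Without DMSO 1, 43 genes were positive and the median was 0.00318. Without DMSO 1 and dTAG47 1, 40 were positive and the median was 0.00153. Without DMSO 3 the median was 0.0745, with 60 positive. Between libraries of a group, the set's median deviation had an SD of 0.0439. Both compound comparisons use the same 3 DMSO libraries, so a deviation in one of these enters both.

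The tunnel protein gene MRPL24 was at 85.3, 84.4 and 81.3 CPM with AGB1, above all 3 DMSO libraries, with a log2 fold change of 0.19 (edgeR adjusted p = 0.476, SE 0.07). The stalk gene MRPL10 was at 102, 91.3 and 90.7 CPM, also above all DMSO libraries (0.19, SE 0.07, adjusted p = 0.415). MRPL40, a protein added in mitochondria, was at 71.7, 75.7 and 76.4 CPM in DMSO and 78.8, 81.7 and 92.4 with AGB1 (0.18, SE 0.07, adjusted p = 0.536). The value of MRPL24 was 0.13 without DMSO 1, and that of MRPL40 was 0.10 without AGB1 3, its highest library. MRPL41 had 0.18 (SE 0.10) and MRPL23 0.20 (SE 0.12, adjusted p = 0.736).

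MRPL53 had the most negative value among genes at 5 CPM or more. It was at 6.81, 8.38 and 6.51 CPM in DMSO and 5.72, 5.05 and 5.44 with AGB1, all AGB1 libraries below all DMSO libraries, with a log2 fold change of -0.42 (edgeR adjusted p = 0.552, SE 0.18). MRPL53 shares 45.2% of its exonic bases with CCDC142, a gene on the same strand at a mean of 31.4 CPM. With the counts of both genes added before the fit, the sum had -0.14 with AGB1 (SE 0.08, edgeR adjusted p = 0.738) and 0.02 with dTAG47. MRPL53 itself was at a mean of 6.26 CPM, so the sum is mostly CCDC142 and does not give the change of MRPL53. The next lowest, MRPS14, MRPL50, MRPL32 and MRPL47, had -0.09, -0.09, -0.09 and -0.07.

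MRPL42, a protein of the large subunit added in mitochondria, lay below DMSO under both compounds. It was at 206, 204 and 204 CPM in DMSO, 182, 203 and 197 with dTAG47, and 203, 196 and 191 with AGB1. Its 3 DMSO libraries were almost equal, and the log2 fold changes were -0.08 (SE 0.06, edgeR adjusted p = 0.811) and -0.06 (SE 0.06, adjusted p = 0.858). In all, 5 genes did not overlap DMSO on the higher side with AGB1 (MRPL24, MRPL10, MRPL40, MRPL18 and MRPS30; 6.41%) and 2 on the lower side (MRPL53 and MRPL42; 2.56%), against 6.56% and 6.75% of all tested genes.

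The third comparison set the compounds against each other. The DMSO group is not part of this contrast, but its libraries were in the same fit and entered the filter, scaling and estimated spread. Here 0 of the 78 genes passed in edgeR, DESeq2 and limma-voom, and 0 of all 18319 genes did in any of them, while 4.02% of all genes had an unadjusted p under 0.05 in edgeR. In the set, 1 gene had such a p on the higher side in dTAG47 (MRPL23) and 3 on the lower (MRPS6, MRPL33 and MRPL36), against 2.25% and 1.77% of all tested genes. A positive fold change was found in 19 of the 78 (24.4%), against 50.04% of all tested genes, with a median of -0.0306 against 5.54e-05. The median lay between -0.0392 and -0.0293 when any library of these groups was left out, and it was -0.0382 without DMSO 1 and dTAG47 1.

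MRPL23 was higher with dTAG47 than with AGB1 by 0.48 on the log2 scale (SE 0.12, 95% interval 0.23 to 0.72, edgeR adjusted p = 0.999), and by 0.25 without dTAG47 1. With no filter on low counts it passed (0.48, adjusted p = 1.82e-04). Its response to dTAG47 is therefore not shown to differ from that to AGB1 under the filter used. MRPS6 was the most negative gene at 5 CPM or more: its libraries were at 19.0 to 20.9 CPM with dTAG47 and 24.5 to 26.0 with AGB1, with a log2 fold change of -0.33 (SE 0.10, adjusted p = 0.999). MRPL33 was at 25.7, 25.4 and 29.9 CPM with dTAG47 and 29.2, 33.6 and 31.8 with AGB1 (-0.22, SE 0.10). The summed counts of MRPL33 and BABAM2, which do not separate these genes, had -0.09 (SE 0.07). MRPL36 was at 35.4, 34.5 and 39.8 against 41.8, 41.4 and 42.0 CPM (-0.19, SE 0.09), so that its groups did not overlap while those of MRPL33 did. Besides MRPL23, 0 genes were wholly above AGB1 (1 in all, 1.28%, against 5.35% of all tested genes), and MRPS6, MRPL36, MRPL21, MRPL30, MRPL18 and MRPS27 were wholly below (7.69%, against 5.10%). Among the other extremes MRPL38, MRPL53, MRPL14 and MRPL54 had 0.19, 0.18, 0.10 and 0.09, and MRPL46 and MRPL2 -0.18 and -0.14.

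The genes that vary most over the 9 libraries, at 5 CPM or more, were MRPL23, MRPL38, MRPL53, MRPS18A and MRPS28. MRPS18A ran from 13.0 CPM in DMSO 1 to 20.7 in dTAG47 1, at a GC content of 57.3%, and MRPL38 from 4.18 to 8.24 between the same libraries, at 64.6%. MRPS28 ran from 5.25 to 7.79 CPM. In MRPS18A and MRPL38 the extremes were thus the libraries with the steepest GC trends, whose part in these ranges was not tested.

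The mitochondrial ribosome also holds proteins whose genes carry other names. DAP3, the GTP-binding protein of the small subunit, had a mean level of 131 ± 3.95 CPM in DMSO, 134 ± 4.18 after dTAG47 and 143 ± 0.630 after AGB1 (SD, n = 3 each), and none of it, AURKAIP1, CHCHD1, PTCD3 and GADD45GIP1 passed in any comparison. Their fold changes ran from -0.08 in PTCD3 to 0.11 in AURKAIP1 with dTAG47 and from -0.09 in CHCHD1 to 0.12 in DAP3 with AGB1. Of 26 assembly factors, which build and modify the particle, 0 passed in any comparison. The extremes with dTAG47 were MTG1, a GTPase of large-subunit assembly, at 0.33 (SE 0.16, edgeR adjusted p = 0.681), and MRM1, a ribosomal RNA methyltransferase, at -0.22 (SE 0.13). With AGB1 they were MTG1 at 0.25 and MTERF3 at -0.10.

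Of 17 translation factors and helpers, 0 passed. GFM2, which recycles ribosomes, had the most negative value under both compounds (-0.20 and -0.14), and the most positive were MTRF1L, a release factor, with dTAG47 (0.14) and MTFMT, which formylates the initiator tRNA, with AGB1 (0.25). Of 9 genes for transcription and maintenance of mitochondrial DNA and 12 of mitochondrial protein quality control, 0 passed. The former ranged from TEFM to POLG with both compounds (-0.17 to 0.13 and -0.08 to 0.11), the latter from HSPE1 to AFG3L2 (-0.15 to 0.14 and -0.06 to 0.21).

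Of the 15 genes of mitochondrial DNA, which include the RNA partners and the products of these ribosomes, 1 passed with dTAG47 and 0 with AGB1. MT-RNR1, the ribosomal RNA of the small subunit, was at 901, 942 and 750 CPM in DMSO, 670, 754 and 593 with dTAG47, and 706, 784 and 704 with AGB1. DMSO 3 was below dTAG47 2, so the groups overlapped, and the log2 fold change was -0.36 (SE 0.07, edgeR adjusted p = 0.0310). It also passed without DMSO 3 (edgeR adjusted p = 5.47e-04) or dTAG47 2 (0.00199), with the replicate block (0.00112) and with the GC trend removed (0.00635). In limma-voom it passed too (adjusted p = 0.0339). It did not pass without DMSO 1 (edgeR adjusted p = 0.0769), DMSO 2 (0.382), dTAG47 1 (0.187) or dTAG47 3 (0.365). Nor did it pass in DESeq2 (0.242), in the fit of those 2 groups alone (0.0917) or without DMSO 1 and dTAG47 1 (0.129). MT-RNR2, that of the large subunit, had -0.06 (SE 0.05), and 4 of the 15 genes had positive values. With AGB1 MT-RNR1 had -0.24 (SE 0.07, adjusted p = 0.257) and MT-RNR2 -0.19 (SE 0.05, adjusted p = 0.198). Ribosomal RNA that comes through poly(A) selection is a remnant of the whole, and these values do not give the amount of ribosomal RNA in the cells.

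Of 9 nuclear regulators of mitochondrial genes, 1 passed with AGB1 and 0 with dTAG47. MYC, a growth regulator that activates many ribosome genes, rose from 151 ± 7.89 to 185 ± 6.59 CPM with AGB1 (log2 fold change 0.29, SE 0.06, edgeR adjusted p = 0.0409), and had 0.13 (SE 0.06) with dTAG47. With AGB1 it also passed in DESeq2 (adjusted p = 0.00127) and limma-voom (0.0339). In edgeR it passed with the GC trend removed (adjusted p = 0.00476), in the fit of those 2 groups alone (0.0365) and without DMSO 3 (0.0229). It missed the threshold without DMSO 1 (edgeR adjusted p = 0.138), DMSO 2 (0.129), AGB1 1 (0.294), AGB1 2 (0.0922) or AGB1 3 (0.281), and with library sizes alone as the scaling (0.0545). Over all settings its log2 fold change with AGB1 lay between 0.25 and 0.32. The genes of the factors whose motifs are listed above were near their DMSO level: YY1 was at 239.9 ± 5.79 CPM in DMSO with log2 fold changes of -0.03 and -0.07, GABPA had -0.04 and -0.07, and NRF1 0.10 and 0.08 with dTAG47 and AGB1.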

How the data were processed

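The authors deposited whole-number read counts by Ensembl gene, 1 file per library for 9 libraries, not normalized, with the gene length beside them. Per the submitters' processing notes, HISAT2 and DESeq2 were used with build hg38; the sources used here do not give versions, nor the program that counted reads and the strand it read. For 58735 of 58735 genes the deposited identifiers were found in GENCODE 29 with the same position. Groups and replicate numbers came from the titles.

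Counts were fitted with edgeR 4.0.16 in R 4.3.3: filterByExpr, TMM scaling, 1 quasi-likelihood model over all 9 libraries with a coefficient per group, and Benjamini-Hochberg adjustment over 18319 genes with a threshold of 0.05. The common biological coefficient of variation was 11%. Standard errors (SE) come from dividing the size of a log2 fold change by the root of its F statistic. CPM values use TMM-scaled library sizes; intervals and limits cover the spread of libraries or counting error only. The fit was tested on simulated data. DESeq2 1.42.0, limma-voom (limma 3.58.1), other scalings, filters and sample sets, a replicate block, removal of the GC trend (lowess, span 0.3) and leaving out each library were tried.

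Named are MRPL23, genes past the threshold, the 5 highest and 5 lowest fold changes per comparison among genes at a mean of 5 CPM or more, the 5 highest and 5 lowest levels per kilobase, the 5 widest ranges, and genes by ribosomal site. Further genes were named after their values were seen, for an unadjusted p, for groups that did not overlap, or for their promoter or neighbour. The members and lists were chosen with earlier results of these data known, among them the call of MRPL23.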

Additional observations from a re-analysis of the deposited data

How the results depend on the processing

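The call of MRPL23 with dTAG47 against DMSO was kept with limma-voom, DESeq2 size factors, library sizes alone, no count filter, 1 CPM in 3 libraries, the GC trend removed and the replicate block. It was lost in DESeq2 (log2 fold change 0.67, adjusted p = 0.147) and with only the dTAG47 and DMSO libraries in the fit (0.67, edgeR adjusted p = 0.0590), which left 0 genes of the set called in each. Leaving out 1 library at a time gave 0.44 to 0.78 and 0 to 1 genes called. With DMSO 1 and dTAG47 1 both left out, an alternative chosen after seeing the data, it was 0.50 with 0 called, and the set's median was -0.0498; over single libraries left out that median ran from -0.0438 to 0.0289. Against AGB1, MRPL23 passed only without a count filter (0.48, adjusted p = 1.82e-04), where 1 gene of the set was called and 13 of all 33037 genes, against 0 of 18319 with the filter. The causes were not tested.

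Same-numbered libraries of different groups had correlations of their deviations between -0.156 and 0.0715, so the numbers are not taken to pair them. With the replicate block MRPL23 had 0.66 (edgeR adjusted p = 0.00194) and 1, 0 and 0 genes of the set were called in dTAG47 against DMSO, AGB1 against DMSO and dTAG47 against AGB1; with the block and the GC trend removed MRPL23 had 0.61 (adjusted p = 1.63e-04). The block lost the call of MYC with AGB1 (adjusted p = 0.0785).

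Over all genes, counts of calls moved by more than 1.5 times: for dTAG47 against DMSO 11 became 47 in DESeq2, 43 without a filter, 22 with the GC trend removed and 4 in the fit of those groups alone, and 2 to 20 with 1 library left out. For AGB1 against DMSO 19 became 81, 67 and 48 in the first 3 of these, and 6 to 55 with 1 library left out. Adding the counts of overlapping genes, also chosen after seeing the data, left the calls of the set as they were. With 3 libraries a group, the median standard error of a gene in the set was 0.0754 for dTAG47 against DMSO.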
